A study of Mus musculus with 10 samples.

Results

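The genes described are 38 chaperone and unfolded protein response (UPR) genes, taken by gene name from the 24391 gene names in the count tables: heat shock proteins of the cytosol and mitochondria, chaperones and folding enzymes of the endoplasmic reticulum (ER), the machinery of ER-associated degradation, and the sensors, transcription factors and targets of the UPR and the integrated stress response. All 38 names were in the tables, and 37 passed the filter on low counts. Trib3 did not. In the hippocampus 4 days after subarachnoid hemorrhage (SAH), these genes differed little between the groups. Pdia3, an ER protein disulfide isomerase, rose 1.17-fold over control (1 of 37 tested, where 3.13% of all genes rose and 1.54% fell), and 0 members fell. Leaving out 1 mouse at a time ended that call for 8 of the 10 mice. The largest log2 fold change among the 37 tested was 0.38, in Hspa5, which did not pass the test. The 14 ER chaperones and foldases had a median log2 fold change of 0.16, beside −0.0024 over all genes tested, and in 8 of them SAH mice 3 and 4 were the highest 2 of the 10 mice.

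Proteins made for secretion or for membranes fold inside the ER, where the HSP70 protein BiP, the product of Hspa5, and the HSP90 protein Grp94, the product of Hsp90b1, hold unfolded chains, the lectins calreticulin and calnexin hold glycoproteins, and protein disulfide isomerases form and rearrange disulfide bonds. When unfolded protein builds up, the membrane sensors IRE1 (Ern1), PERK (Eif2ak3) and ATF6 start the UPR. IRE1 splices Xbp1 mRNA, ATF6 is cut to release a transcription factor, and PERK phosphorylates eIF2α, which slows translation in general and favours that of Atf4. ATF6 and XBP1 act on ER stress response elements in promoters of ER chaperones, whereas ATF4 and CHOP (Ddit3) act on genes of amino acid synthesis and cell death. The cytosolic heat shock response is a separate program, driven by HSF1 through heat shock elements. Hippocampal neurons hold large amounts of the constitutive members Hspa8 and Hsp90ab1.

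RNA was taken from bilateral whole hippocampus, with 1 library per mouse, from male C57BL/6J mice (printed C56BL/6J in the study's methods) of 10 to 14 weeks. The surgery was done under isoflurane. In the SAH group (mice 1 to 4) a filament perforated the circle of Willis, and of these mice those with a large fall in cerebral blood flow were kept. In the Sham group (mice 5 to 7) the filament was moved forward until it met resistance and the artery was left unpunctured, and the Naive mice (8 to 10) were not operated on. SAH was compared with Sham and Naive pooled as control (n = 6), which is how the study formed its gene lists, and with each group apart. The data are from 1 time point and from males, and since the tissue is bulk, a change in the number of cells of a type and a change in RNA per cell cannot be told apart.

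Between 19743388 and 27254655 read pairs were counted per mouse, of which the 38 genes took 0.757% to 0.884%. Neuronal markers summed to 6510 to 7111 CPM (a gene's counts relative to its library's total, as corrected by TMM) in SAH and 6411 to 6847 CPM in control, as the hippocampal label asks. The 4 globin genes among the red cell markers were listed at 0 in all mice. They are near copies, and read pairs matching both copies were not counted. Whether this gave the zeros was not tested, so that blood in the tissue cannot be judged from them. The other red cell marker, Alas2, had 1.06 to 3.68 CPM in SAH and 1.32 to 2.57 CPM in control (log2 fold change 0.36, adjusted p = 0.546 in edgeR). Some libraries stood apart. Choroid plexus markers (8 genes) summed to 1242 CPM in SAH 3, 875 in SAH 4 and 841 in Sham 7, against 51.4 to 222 in the other 7 mice, and SAH 3 held the highest of the 10 values in 24.8% and the lowest in 26.3% of all genes tested. Results are therefore also given without the 3 mice high in choroid plexus markers, a setting chosen after the data were seen. It drops SAH 3 and SAH 4, which were also the highest mice for most ER chaperones, and leaves 2 SAH mice, so that lower ER fold changes follow from the choice of mice and say nothing of choroid plexus content.

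Promoter sequences are shown first, because several of the members with the highest fold changes share a motif in them. RefSeq promoters (GRCm38.p6, 250 bases before to 50 after the start) were found for 31 of the 38 genes. The ER stress response element (ERSE) was searched as CCAAT, any 9 bases, then CCACG, on both strands. It is in 37 of 27025 genes (0.137%) and in 8 of the 31 members: Hspa5, Hsp90b1 (at 2 places), Dnajc3, Calr, Canx, Pdia6, Creld2 and Syvn1, of which 7 are among the 12 ER chaperones and foldases with a promoter entry. The element is known from promoters of ER chaperones, so its higher share among the members is no result of these data. Each match is printed with 15 bases on either side, on the strand that reads CCAAT first. Capitals mark the CCAAT and CCACG boxes, and all windows lie before the start site.
Hspa5, chr2:34772010-34772058, plus strand: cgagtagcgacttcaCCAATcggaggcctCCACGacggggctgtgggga
Hsp90b1, distal, chr10:86705623-86705671, minus strand: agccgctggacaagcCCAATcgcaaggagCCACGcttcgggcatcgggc
Hsp90b1, proximal, chr10:86705518-86705566, plus strand: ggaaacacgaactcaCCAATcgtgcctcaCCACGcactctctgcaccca
Dnajc3, chr14:118937812-118937860, plus strand: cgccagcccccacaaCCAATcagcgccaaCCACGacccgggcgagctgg
Calr, chr8:84847060-84847108, plus strand: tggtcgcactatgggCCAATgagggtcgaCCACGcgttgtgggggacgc
Canx, chr11:50325785-50325833, minus strand: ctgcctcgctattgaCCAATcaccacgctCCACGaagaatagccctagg
Pdia6, chr12:17266476-17266524, plus strand: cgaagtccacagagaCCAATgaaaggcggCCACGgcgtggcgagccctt
Creld2, chr15:88819505-88819553, minus strand: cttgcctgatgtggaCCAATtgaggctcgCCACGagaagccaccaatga
Syvn1, chr19:6046517-6046565, plus strand: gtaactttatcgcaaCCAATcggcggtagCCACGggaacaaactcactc

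The Hspa5 promoter is shown for 170 bases up to the start, since this gene had the largest fold change. Capitals mark the exact ERSE match and, near the 5′ end, the UPR element core TGACGTG. This core is in 2.22% of all genes with a promoter entry and, of the 31 members, only in Hspa5. Looser forms of either motif were not searched and stay in lower case. The same stretch of Pdia3, the member that passed the test, follows. It holds neither motif letter for letter, so that no letters are capitals. Close to the start site it holds ccaat, 9 bases and then ccaca, which differs from the ERSE in the last letter.
Hspa5, chr2:34771920-34772089, plus strand: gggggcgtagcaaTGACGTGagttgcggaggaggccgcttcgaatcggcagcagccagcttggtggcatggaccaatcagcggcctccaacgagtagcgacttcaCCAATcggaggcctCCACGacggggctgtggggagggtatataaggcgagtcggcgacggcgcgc
Pdia3, chr2:121413732-121413901, plus strand: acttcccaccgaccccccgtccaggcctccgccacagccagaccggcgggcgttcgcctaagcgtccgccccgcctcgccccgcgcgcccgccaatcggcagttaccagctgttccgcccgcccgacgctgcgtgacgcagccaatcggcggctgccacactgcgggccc

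Herpud1 and Dnajb11 hold the second form of the element (ERSE-II, searched as ATTGG, any base, CCACG), which is in 0.0444% of genes. This motif was added after the data were seen. The Dnajb11 match lies after the start site and is not printed. Hspd1 and Hspe1 stand back to back on chromosome 1 and share the stretch between them, which holds a heat shock element (GAA, TTC and GAA with any 2 bases between, 0.662% of genes) that overlaps a second match on the other strand. Hsph1 holds the same element after its start. Capitals mark the letters of each motif.
Herpud1, ERSE-II, chr8:94386362-94386402, plus strand: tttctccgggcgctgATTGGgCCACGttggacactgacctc
Hspd1 and Hspe1, heat shock element, chr1:55088049-55088091, plus strand: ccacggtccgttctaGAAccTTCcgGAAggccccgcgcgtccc

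The C/EBP-ATF element TGATGNAA was in Herpud1, Trib3, Chac1 and Asns, of 4.51% of all genes. A match describes the letters of a window and is no proof of a bound site. The 7 ER chaperones and foldases with an exact ERSE match had log2 fold changes of −0.048 to 0.38 with a median of 0.20. The 5 with a promoter entry and no exact match, Pdia3 among them, had 0.0014 to 0.22 with a median of 0.15. The spans overlap, and the difference was not tested.

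In the pooled comparison 1 of 37 members was higher in SAH and 0 were lower (edgeR's quasi-likelihood test with Benjamini-Hochberg adjustment over 14993 genes, threshold 0.10). Of all genes tested 3.13% were higher and 1.54% lower, so the count of members is at the background. At an unadjusted p under 0.05 there were 7 members (18.9%), all higher in SAH, where 9.13% of all genes were higher at this level (17% in either direction). A difference between these shares was not tested. These were Pdia3, Dnajc3, Calr, Hspa5, Herpud1, Hsp90b1 and Pdia6. With DESeq2, 3 members were higher (Pdia3, Dnajc3 and Calr) and 0 lower, where 3.96% of all genes were higher and 2.46% lower. In 0 members did all 4 SAH mice lie above or below all 6 control mice, which 2.83% and 2.37% of all genes did. Fold changes were positive in 27 members and negative in 10, with a median of 0.071.

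**Figure D1:**
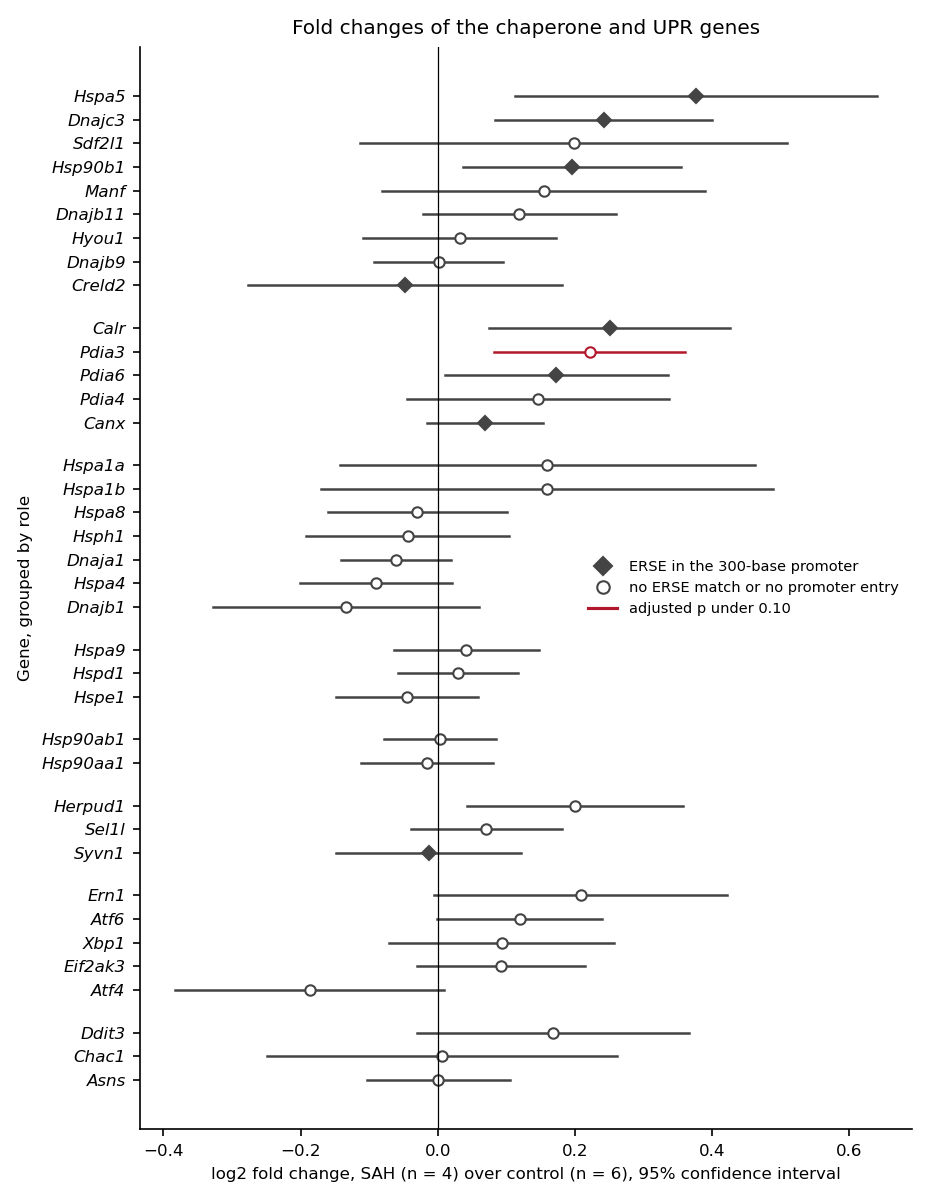
Log2 fold change of SAH (n = 4) over control (n = 6) with its 95% confidence interval for the 37 tested members, grouped by role. Filled diamonds are genes with an exact ERSE match in the promoter, open circles the others, and red marks Pdia3, the member past the threshold. Of the 14 ER chaperones and foldases 13 lie to the right of 0, up to 0.38 in Hspa5, and Creld2 lies to the left at −0.048.

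Pdia3 encodes ERp57, which works with calreticulin and calnexin on glycoproteins (chromosome 2, 121239638 to 121264422 in mm9). It had 207, 199.5, 244 and 260.1 CPM in SAH mice 1 to 4, 203, 188 and 196 in the Sham mice and 189, 202 and 195 in the Naive mice. SAH 3 and SAH 4 stood above all other mice, SAH 1 was just above the highest control mouse, and SAH 2 lay within the control range. The means were 228 ± 29.0 CPM (SD, 4 mice) after SAH and 195 ± 6.17 CPM (SD, 6 mice) in control, a 1.17-fold rise (adjusted p = 0.0976, log2 fold change 0.22 with a standard error of 0.065). The call depended on single mice: it held without SAH 1 or without SAH 2 and was lost without each of the other 8. Without the 3 mice high in choroid plexus markers the log2 fold change was 0.061 (adjusted p = 0.682).

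Calr, calreticulin, the soluble ER lectin and calcium store (chromosome 8, 87365987 to 87370830 in mm9), had 372, 354, 445 and 499 CPM in SAH mice 1 to 4, 371, 332 and 345 in the Sham mice and 326, 372 and 359.6 in the Naive mice. As for Pdia3, SAH 4 and SAH 3 were the highest of the 10 mice, while SAH 1 and SAH 2 overlapped with control. Its log2 fold change was 0.25 with a standard error of 0.082 (adjusted p = 0.132 with edgeR and 0.0698 with DESeq2), and it was 0.046 without the 3 mice high in choroid plexus markers. Pdia6, another disulfide isomerase, was highest in SAH 4 at 134 CPM, against 97.8 to 107 CPM in the remaining SAH mice and 92.9 to 107 CPM in control (log2 fold change 0.17, adjusted p = 0.262). Pdia4 (ERp72) followed the same order, with 59.4 CPM in SAH 4 and at most 48.5 CPM in any other mouse (log2 fold change 0.15, 95% confidence interval −0.045 to 0.34). Canx, calnexin, the membrane lectin, differed least in this group. It spanned 381 to 429 CPM in SAH and 371 to 399.9 CPM in control (log2 fold change 0.069, 95% confidence interval −0.015 to 0.15).

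Of the ER HSP70 and HSP90 system, Hspa5 (chromosome 2, 34627610 to 34632049 in mm9) had 220.0, 206, 325 and 336 CPM in SAH mice 1 to 4, 232, 187 and 208 in the Sham mice and 198, 225 and 206 in the Naive mice. SAH 3 and SAH 4 were far above the highest control mouse, and SAH 1 and SAH 2 lay inside the control range. The means were 272 ± 68.1 CPM (SD, 4 mice) after SAH and 209 ± 16.8 CPM (SD, 6 mice) in control, a ratio of 1.30 that missed the threshold (adjusted p = 0.133, log2 fold change 0.38 with a standard error of 0.12). Leaving out SAH 2 gave a log2 fold change of 0.49 that passed (adjusted p = 0.0295), leaving out SAH 4 gave 0.26 (adjusted p = 0.317), and leaving out the 3 mice high in choroid plexus markers gave 0.027. Sham 7, whose choroid plexus sum was near that of SAH 4, had 208 CPM of Hspa5, inside the range of the other controls. The part of choroid plexus tissue in the ER values was not tested.

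**Figure D2:**
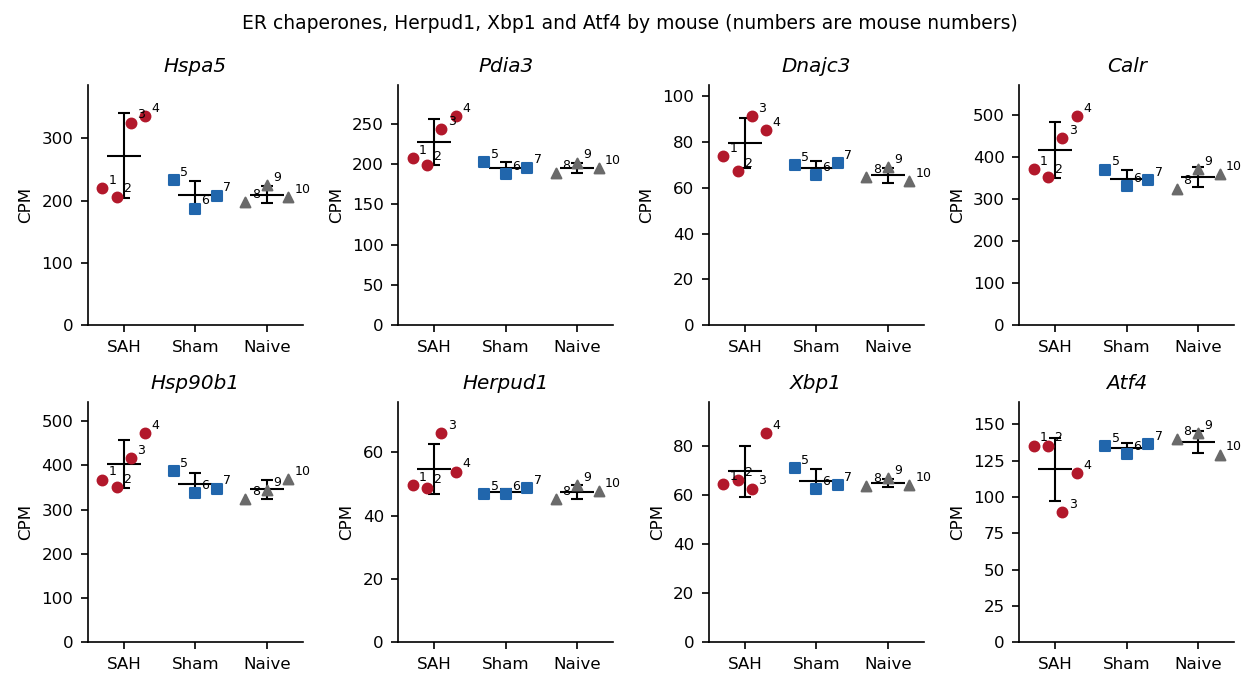
CPM of 8 members in each mouse, with mouse numbers beside the points and bars for the mean ± SD of the 4 SAH, 3 Sham and 3 Naive mice; each axis starts at 0. Hspa5, Pdia3, Dnajc3, Calr and Hsp90b1 are highest in SAH 3 and SAH 4, Xbp1 is high in SAH 4 alone at 85.2 CPM, and Atf4 is lowest in SAH 3 at 89.6 CPM.

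Dnajc3 (p58IPK), a J-domain partner of BiP (chromosome 14, 119337154 to 119380924 in mm9), had 73.8, 67.2, 91.3 and 85.3 CPM in SAH mice 1 to 4, 70, 65.4 and 70.9 in the Sham mice and 64.5, 69.0 and 62.8 in the Naive mice. Here SAH 3 was the highest mouse, SAH 4 and then SAH 1 followed, and SAH 2 lay within the control range. The log2 fold change was 0.24 with a standard error of 0.074 (adjusted p = 0.109 with edgeR and 0.0518 with DESeq2), and 0.090 without the 3 mice high in choroid plexus markers. Hsp90b1 had 368, 352, 417 and 473 CPM in SAH mice 1 to 4, 387, 337 and 348 in the Sham mice and 325, 343 and 369 in the Naive mice. SAH 1 and SAH 2 lay below Sham 5, the highest control, and SAH 3 and SAH 4 above it (log2 fold change 0.20, adjusted p = 0.195). Dnajb11 (ERdj3), another J-domain partner of BiP, had a log2 fold change of 0.12 (95% confidence interval −0.021 to 0.26), with 57.9 CPM in SAH 3 and 56.2 CPM in SAH 4 against at most 49.9 CPM in control. Manf, a secreted ER stress protein with neurotrophic activity, was at 47.6 CPM in SAH 4 and at 30.1 CPM in SAH 2, near the lowest control mouse (0.15, 95% confidence interval −0.081 to 0.39). Sdf2l1, a partner of the ERdj3 complex, had 10.3 CPM in SAH 4 and at most 7.33 CPM elsewhere. Its log2 fold change of 0.20 became −0.013 without SAH 4. These 3 values turned negative without the 3 mice high in choroid plexus markers (Dnajb11 −0.0049, Manf −0.081 and Sdf2l1 −0.092). Hyou1, an ER HSP70-like exchange factor, and Dnajb9 (ERdj4), an IRE1 partner, were at 0.032 (95% confidence interval −0.11 to 0.17) and 0.0014 (95% confidence interval −0.093 to 0.096) on the log2 scale. Creld2 was the only ER chaperone or foldase with a negative value (−0.048, 95% confidence interval −0.28 to 0.18), and it had its lowest level, 8.84 CPM, in SAH 3.

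Across the 14 ER chaperones and foldases, SAH 4 held the highest of the 10 values in 11 genes (78.6%), which it did in 14% of all genes tested, and SAH 3 held it in 2. SAH 3 and SAH 4 were together the top 2 mice in 8 of the 14 (57.1%), in 5 of the 23 other tested members (21.7%) and in 9.14% of all genes. SAH 1 and SAH 2 were the highest mouse in 0 of the 14. Summed, the 14 genes took 0.259% of counts in SAH 4, 0.232% in SAH 3, 0.204% in SAH 1 and 0.196% in SAH 2, against 0.185% to 0.209% in the 6 control mice, so that SAH 1 and SAH 2 fell inside the control range. These are counts over genes measured in the same libraries. The pair SAH 3 and SAH 4 was named after the values were seen, so the shares are given as a description only. Without the 3 mice high in choroid plexus markers 0 members passed the test, and 1 had an unadjusted p under 0.05 (Asns).

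**Figure D3:**
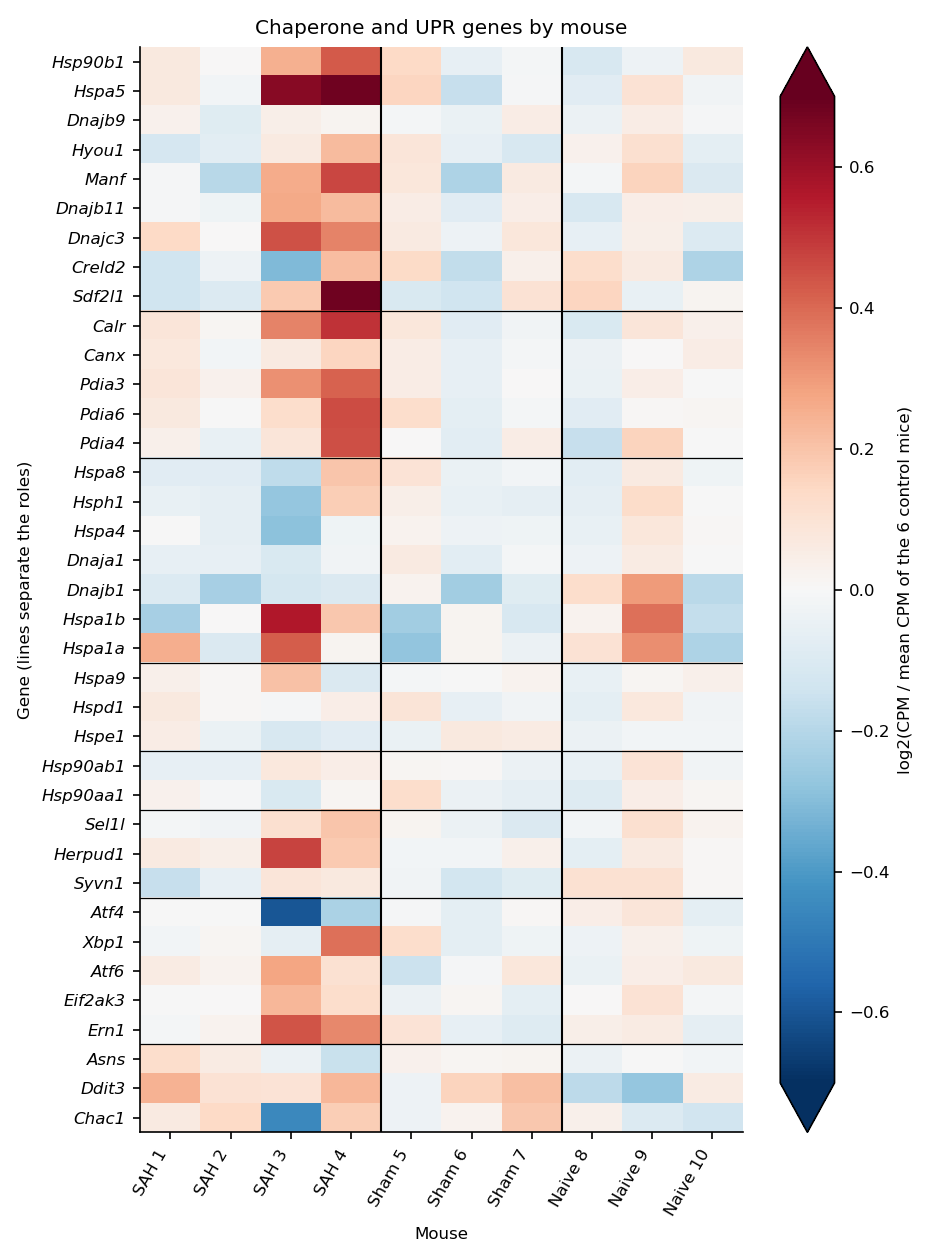
Each cell is the log2 ratio of a gene's CPM in a mouse to its mean CPM in the 6 control mice, red above and blue below, for the 37 tested members; black lines separate roles and groups, and values beyond the colour bar take the end colours. Most red cells of the ER chaperones in the top rows stand in SAH 3 and SAH 4, and the blue cells of Atf4 and Chac1 in SAH 3.

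**Figure D4:**
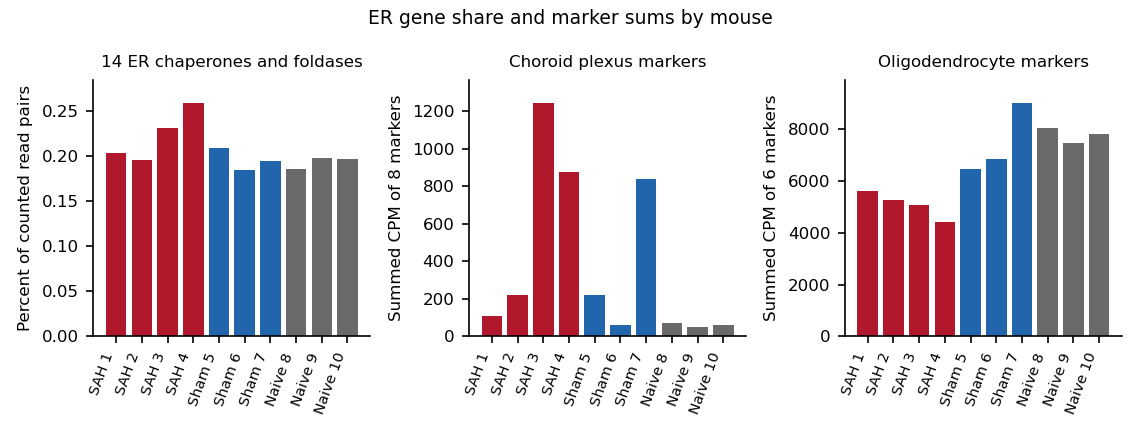
Bars give, for each mouse, the percent of counted read pairs on the 14 ER chaperones and foldases, the summed CPM of 8 choroid plexus markers and the summed CPM of 6 oligodendrocyte markers. The ER share is highest in SAH 4 (0.259%) and SAH 3 (0.232%), choroid plexus markers are high in SAH 3, SAH 4 and Sham 7, and oligodendrocyte markers are lower in every SAH mouse than in every control mouse.

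Markers of several cell types moved with the groups in the same libraries. All 6 oligodendrocyte markers were lower in SAH (summed 4394 to 5621 CPM against 6453 to 8994 CPM in control), 7 of 8 fibroblast markers were higher (102 to 199 CPM against 96.1 to 127 CPM), 4 of 8 microglia and macrophage markers were higher (418 to 516 CPM against 381 to 430 CPM), 2 of 6 endothelial markers were higher (114 to 226 CPM against 104.5 to 147 CPM) and 1 of 6 astrocyte markers was higher (2710 to 3734 CPM against 2569 to 2809 CPM). The endothelial sum was highest in SAH 4 (226 CPM) and SAH 3 (178.5 CPM), as was the ER share, and lowest in Sham 7 (104.5 CPM). Below these top mice the orders differed. Sham 5 had the highest ER share of the control mice (0.209%) and an endothelial sum of 105 CPM. SAH 3 and SAH 4 were also the top mice for astrocyte markers (3734 and 3214 CPM) and for microglia and macrophage markers (468 and 516 CPM). Fibroblast markers ran the other way, with 193.5, 199, 102 and 152 CPM in SAH mice 1 to 4. All 8 choroid plexus markers had positive fold changes, and 0 passed the test against pooled control (108 to 1242 CPM against 51.4 to 841 CPM, with 2 at an unadjusted p under 0.05 in edgeR and 0 past the threshold in DESeq2). Against Naive alone 2 of the 8 passed in edgeR (Kcnj13 and Ttr, adjusted p = 0.0363 and 0.0874), and against Sham, with Sham 7 among the high mice, the smallest adjusted p was 0.750, for Kl. Neurons had 0 of 6 called by edgeR or DESeq2, and 0 at an unadjusted p under 0.05. Plasma cells, which are rich in ER chaperones, had marker sums of 1.80 to 2.66 CPM in SAH and 1.08 to 1.96 CPM in control, and 1 of 5 markers was abundant enough to test (Sdc1, log2 fold change 0.66, unadjusted p = 0.0279, adjusted p = 0.229 in edgeR). T cell markers, of which 5 of 6 were in the tables, summed to under 1 CPM in all mice. The part of these cell types in the chaperone values was not tested.

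In ER-associated degradation, which returns misfolded proteins to the cytosol for the proteasome, Herpud1 had 49.7, 48.9, 66.0 and 53.9 CPM in SAH mice 1 to 4, 46.8, 46.9 and 48.6 in the Sham mice and 45.2, 49.7 and 47.8 in the Naive mice. SAH 3 was the highest and SAH 4 the next, while SAH 1 and SAH 2 overlapped with control (log2 fold change 0.20 with a standard error of 0.073, adjusted p = 0.181). Without the 3 mice high in choroid plexus markers it was 0.063. Sel1l and Syvn1 (HRD1), the adaptor and the ubiquitin ligase of the core complex, had log2 fold changes of 0.071 (95% confidence interval −0.039 to 0.18) and −0.013 (95% confidence interval −0.15 to 0.12).

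The sensors and transcription factors had a median log2 fold change of 0.093, and 0 of 5 passed the test in edgeR or DESeq2, with 0 at an unadjusted p under 0.05. Ern1 (IRE1α) had 7.45, 7.65, 10.2 and 9.51 CPM in SAH mice 1 to 4, 8.05, 7.24 and 7.08 in the Sham mice and 7.75, 7.82 and 7.22 in the Naive mice (log2 fold change 0.21, adjusted p = 0.305). SAH 3 and SAH 4 were the highest mice, while SAH 1 and SAH 2 lay within the control range, and without the 3 mice high in choroid plexus markers the value was −0.0070. Atf6 was at 0.12 (95% confidence interval −0.0012 to 0.24) and Eif2ak3 (PERK) at 0.092 (95% confidence interval −0.030 to 0.21), both highest in SAH 3. Xbp1 had 64.5, 66.1, 62.6 and 85.2 CPM in SAH mice 1 to 4, 71.1, 62.4 and 64.0 in the Sham mice and 63.8, 66.8 and 64.0 in the Naive mice. SAH 4 stood alone, and the other SAH mice lay at control levels. The log2 fold change of 0.093 was −0.020 without that mouse. Counts per gene do not separate spliced from unspliced Xbp1, so its splicing was not measured here. Atf4, whose product is controlled mainly by translation, had 135, 135, 89.6 and 116 CPM in SAH mice 1 to 4, 135, 129.7 and 137 in the Sham mice and 140.2, 144 and 129 in the Naive mice. SAH 3 was far below the others, SAH 4 was below all control mice, and SAH 1 and SAH 2 lay within the control range. The log2 fold change was −0.19 with a standard error of 0.091 (adjusted p = 0.322), and it was −0.071 without SAH 3 and 0.00072 without the 3 mice high in choroid plexus markers.

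The ATF4 and CHOP targets were at control levels on average (median log2 fold change 0.0066, 0 of 3 tested called by edgeR or DESeq2, 0 at an unadjusted p under 0.05). Ddit3, which encodes the death-associated factor CHOP, had 16.5, 14.97, 14.9 and 16.4 CPM in SAH mice 1 to 4, 13.6, 15.6 and 16.1 in the Sham mice and 12.3, 11.6 and 14.5 in the Naive mice. The lowest values were in Naive 8 and Naive 9, and the Sham mice overlapped with the SAH mice (log2 fold change 0.17, 95% confidence interval −0.031 to 0.37). Chac1, which degrades glutathione, was at 4.70 CPM in SAH 3 and between 6.72 and 7.23 CPM in SAH 1, 2 and 4, with 5.86 to 7.32 CPM in control (0.0066, 95% confidence interval −0.25 to 0.26). Asns, asparagine synthetase, was even, with 95.4 to 116 CPM in SAH and 103 to 108 CPM in control and a log2 fold change of 0.00048 (95% confidence interval −0.10 to 0.10). Trib3, a pseudokinase induced by CHOP, was near the limit of detection with 11, 12, 7 and 8 counts in SAH mice 1 to 4, 4, 12 and 7 in the Sham mice and 5, 3 and 7 in the Naive mice. It did not pass the filter of the pooled edgeR fit. DESeq2 gave a pooled log2 fold change of 0.67 (adjusted p = 0.518), and in the edgeR fit of 3 groups its log2 difference was 0.44 from Sham and 0.91 from Naive (adjusted p = 0.751 and 0.341).

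The 7 genes of the cytosolic HSP70 system, which folds new and damaged proteins outside the ER, had a median log2 fold change of −0.044, from −0.13 to 0.16, with 0 called by edgeR or DESeq2 and 0 at an unadjusted p under 0.05. Hspa8 (Hsc70), the constitutive HSP70, had 1022, 1024, 953 and 1233 CPM in SAH mice 1 to 4, 1156, 1047 and 1066 in the Sham mice and 1027, 1127 and 1058 in the Naive mice. SAH 4 was the highest and SAH 3 the lowest of the 10 mice, and the log2 fold change was −0.030 (95% confidence interval −0.16 to 0.10). Its exchange factors Hsph1 and Hspa4 were also lowest in SAH 3, at 296 and 267 CPM (−0.044, 95% confidence interval −0.19 to 0.10, and −0.090, 95% confidence interval −0.20 to 0.021). The J-domain proteins Dnaja1 and Dnajb1 had −0.061 (95% confidence interval −0.14 to 0.019) and −0.13 (95% confidence interval −0.33 to 0.060). Dnajb1 was highest in Naive 9, at 66.3 CPM, and spanned 45.9 to 50.4 CPM in SAH.

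Hspa1a and Hspa1b encode the heat-inducible HSP70, a gene that marks acute proteotoxic stress. Both were scarce in all groups, with 3.83 to 5.51 CPM in SAH and 3.38 to 5.14 CPM in control for Hspa1a. Hspa1b had 4.79, 5.63, 8.29 and 6.40 CPM in SAH mice 1 to 4, 4.75, 5.70 and 5.19 in the Sham mice and 5.72, 7.35 and 5.01 in the Naive mice. SAH 3 was the highest and Naive 9 the next, so that the groups overlapped (Hspa1a 0.16, 95% confidence interval −0.14 to 0.46, Hspa1b 0.16, 95% confidence interval −0.17 to 0.49). Without the 3 mice high in choroid plexus markers Hspa1b was at −0.11. These genes are near copies: of the 50-base stretches of their mm9 transcripts, 59.4% of Hspa1a occur in Hspa1b and 61.2% of Hspa1b in Hspa1a. Read pairs that aligned to both were discarded by the authors, so both levels are uncertain and likely low.

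Of the cytosolic HSP90 genes, Hsp90ab1, the constitutive form, had 1857, 1859.7, 2040.5 and 2002 CPM in SAH mice 1 to 4, 1951, 1948 and 1878 in the Sham mice and 1866, 2066 and 1905 in the Naive mice. SAH 1 and SAH 2 were just below the lowest control mouse, and SAH 3 and SAH 4 lay within the control range (log2 fold change 0.0029, 95% confidence interval −0.079 to 0.085), and the interval excludes a change of the size seen in Hspa5. Hsp90aa1, the inducible form, spanned 678 to 745 CPM in SAH and 684 to 795 CPM in control (−0.016, 95% confidence interval −0.11 to 0.081). In mitochondria, Hspd1 (HSP60) and its lid Hspe1 (HSP10), which share a promoter stretch, had log2 fold changes of 0.029 (95% confidence interval −0.059 to 0.12) and −0.045 (95% confidence interval −0.15 to 0.058). Hspa9 (mortalin) was highest in SAH 3, at 294 CPM, and lowest in SAH 4, at 239 CPM (0.042, 95% confidence interval −0.064 to 0.15).

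Levels between genes were compared as RPKM (CPM per kilobase of exon) in the 6 control mice. Hsp90ab1 was the most abundant at 772 ± 29.0 RPKM (SD, n = 6), followed by Hspa8 at 513 ± 23.8 and Hsp90aa1 at 256 ± 14.5. The highest ER members were Calr at 181 ± 10.2 RPKM and Hsp90b1 at 127 ± 8.20 RPKM, and Canx (89.9 ± 2.84), Hspa5 (80.0 ± 6.43) and Pdia3 (74.0 ± 2.34) came next. Hspa5 stands between Hspa9 (84.0 ± 1.83) and Atf4 (78.6 ± 3.33) in this order, and its spread overlaps with each of theirs. At the low end stood Hspa1b (2.00 ± 0.332 RPKM), Ern1 (1.89 ± 0.0994) and Hspa1a (1.46 ± 0.228), with Trib3 at 0.124 ± 0.0533. The constitutive cytosolic chaperones thus exceeded the inducible HSP70 genes by far, within the limit set by the near copies.

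With the controls taken apart, 0 of 38 members differed between SAH and Sham in edgeR, where 0.72% of all genes did, and 0 in DESeq2, where 1.91% did. At an unadjusted p under 0.05 there were 5 members (13.2%), beside 9.69% of all genes. The 5 were Pdia3, Calr, Hspa5, Dnajc3 and Herpud1, and the smallest adjusted p was 0.381, for Pdia3. Between SAH and Naive, 0 of 38 differed in edgeR, where 2.99% of all genes did, and 1 in DESeq2 (Dnajc3), where 4.56% did. At an unadjusted p under 0.05 there were 8 members (21.1%), beside 14.8% of all genes. The smallest adjusted p was 0.165, for Dnajc3. Between Sham and Naive, 0 of 38 differed in edgeR or DESeq2, where 0.00661% and 0.0102% of all genes did. At an unadjusted p under 0.05 there were 2 members (5.26%, Ddit3 and Syvn1), beside 2.02% of all genes. Both comparisons with SAH use the same 4 SAH mice, so their values are only set side by side. Hspa5 was 0.38 above Sham and 0.37 above Naive on the log2 scale, with a Sham to Naive difference of −0.0037. Pdia3 was 0.22 and 0.22 above them, with a Sham to Naive difference of −0.00040. Ddit3 differed in this respect. It was 0.055 above Sham and 0.29 above Naive (adjusted p = 0.877 and 0.174), and Sham was 0.24 above Naive. Syvn1 was −0.15 in Sham relative to Naive, and Dnajb1 was −0.23 in SAH relative to Naive.

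A wider set of 149 genes of the same pathways, of which 145 were tested, was also near the background. In SAH 5 were higher and 0 lower in edgeR, close to the 3.13% and 1.54% of all genes, and with DESeq2 7 were higher and 3 lower. All 4 SAH mice lay above all 6 control mice in 3 of the 145 and below in 2. Of 39 other cytosolic chaperones and co-chaperones, 2 rose, both small heat shock proteins (DESeq2 also called Hspb6), which hold unfolding proteins without ATP. Hspb8, which acts with Bag3 in chaperone-assisted autophagy, had 19.5, 21.1, 27.0 and 23.7 CPM in SAH mice 1 to 4, 15.9, 15.4 and 18.3 in the Sham mice and 14.9, 15.02 and 15.4 in the Naive mice. Every SAH mouse was above every control mouse, and the rise was 1.44-fold (adjusted p = 0.00709, log2 fold change 0.53 with a standard error of 0.089). It passed with each mouse left out, and without the 3 mice high in choroid plexus markers (log2 fold change 0.41, adjusted p = 0.00526). With the Sham mice alone as control it was at 0.46 and did not pass (adjusted p = 0.272), nor did any other gene of the wider set, although 8 had an unadjusted p under 0.05. Hspb1, another small heat shock protein, rose 1.69-fold, with 2.32, 2.096, 3.03 and 4.40 CPM in SAH mice 1 to 4, 1.57, 1.65 and 1.89 in the Sham mice and 1.39, 2.11 and 1.95 in the Naive mice. SAH 2 overlapped with Naive 9, and SAH 4 was the highest (adjusted p = 0.0736, log2 fold change 0.76 with a standard error of 0.21). Without the 3 mice high in choroid plexus markers Hspb1 was at 0.36 (adjusted p = 0.596), and of the 10 fits that left out 1 mouse it passed in 3 (without SAH 1, SAH 2 or Sham 7). Its lowest value was without SAH 4 (0.49, adjusted p = 0.227).

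Of 33 further integrated stress response genes tested, 2 rose. Nupr1, a small chromatin protein induced by stress, had 5.08, 4.74, 4.65 and 5.04 CPM in SAH mice 1 to 4, 2.81, 3.42 and 3.58 in the Sham mice and 2.33, 2.62 and 2.84 in the Naive mice. The SAH mice lay close together and above all controls, with the Sham mice between them and the Naive mice except for Sham 5, which lay among the Naive mice (1.66-fold, adjusted p = 0.00803, log2 fold change 0.73 with a standard error of 0.13). It passed with each mouse left out, and not with the Sham mice alone as control (log2 fold change 0.57, adjusted p = 0.238). Eif2ak2 (PKR), an eIF2α kinase activated by double-stranded RNA and itself an interferon-induced gene, had 10.6, 9.12, 8.39 and 13.4 CPM in SAH mice 1 to 4, 7.97, 7.17 and 8.29 in the Sham mice and 7.07, 7.40 and 6.28 in the Naive mice. Its rise of 1.41-fold placed all SAH mice above all controls, though SAH 3 only just (adjusted p = 0.0521, log2 fold change 0.50 with a standard error of 0.12). It passed in 6 of the 10 fits that left out 1 mouse and lost its call without SAH 4 (log2 fold change 0.35, adjusted p = 0.164), Naive 8, Naive 9 or Naive 10, and without the 3 mice high in choroid plexus markers it was at 0.45 (adjusted p = 0.054). The 31 others tested, which hold the amino acid synthesis and transfer RNA charging genes that ATF4 drives, had 0 calls in edgeR, and DESeq2 called Ppp1r15b lower. Slc7a11, the cystine transporter and an ATF4 target, was called higher by edgeR without SAH 3 and without the 3 mice high in choroid plexus markers, and is named after its values were seen. It had 80.3, 80.5, 44.0 and 72.7 CPM in SAH mice 1 to 4, 60.7, 54.8 and 63.8 in the Sham mice and 52.5, 57.7 and 53.7 in the Naive mice. SAH 3 was the lowest of the 10 mice, and the other SAH mice lay above all controls (log2 fold change 0.28, adjusted p = 0.292 with all mice). In a mixed list of sensor regulators and ER stress transcription factors, 1 of 13 tested genes rose. This was Casp12, an ER-bound caspase of rodents, at 0.808 to 1.55 CPM in SAH and 0.382 to 0.845 CPM in control (adjusted p = 0.0758, log2 fold change 0.89 with a standard error of 0.25). It lost its call with 8 of the 10 mice left out in turn, and without the 3 mice high in choroid plexus markers it was at 1.26 (adjusted p = 0.0311).

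**Figure D5:**
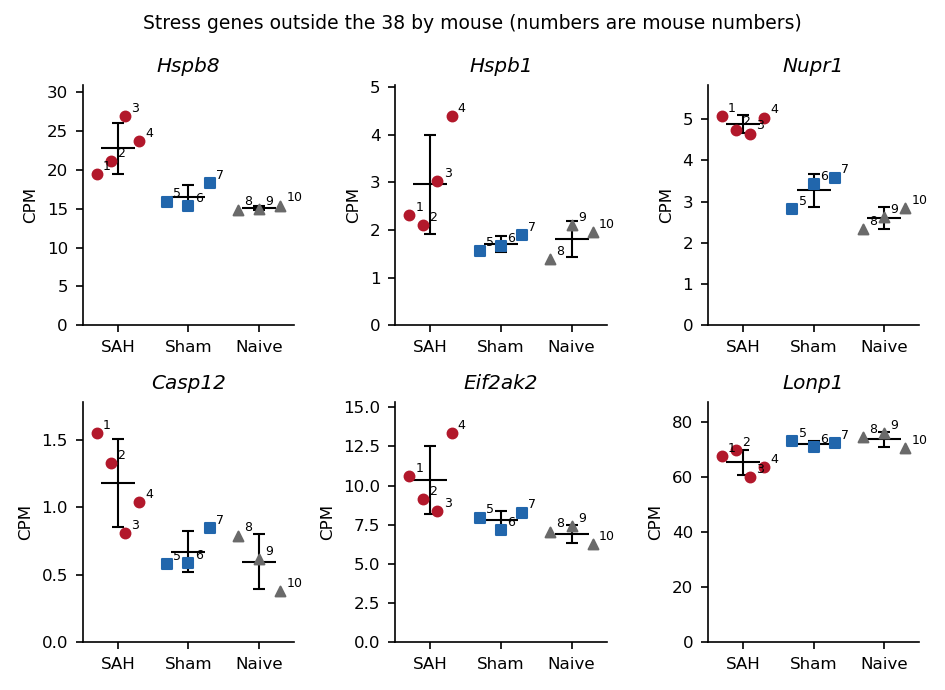
CPM of 6 stress genes outside the 38 in each mouse, with mouse numbers and the mean ± SD of the 4 SAH, 3 Sham and 3 Naive mice; each axis starts at 0. All SAH mice lie above all control mice for Hspb8, Nupr1 and Eif2ak2 and below them for Lonp1, and Hspb1 and Casp12 overlap.

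In the remaining lists 0 genes passed in edgeR. Of 33 further ER chaperones, foldases and translocon genes, 22 had positive fold changes, the median was 0.031, 3 had an unadjusted p under 0.05, and DESeq2 called 1 higher and 1 lower. Ssr2 and Ssr3, subunits of the translocon-associated complex, went in opposite directions. Ssr2 had 56.0, 57.0, 55.4 and 56.3 CPM in SAH mice 1 to 4, 58.9, 60.9 and 59.3 in the Sham mice and 61.3, 62.2 and 63.3 in the Naive mice, so that the SAH and control mice did not overlap (log2 fold change −0.12, adjusted p = 0.127). Ssr3 was at 0.18 (adjusted p = 0.139), and was highest in SAH 3, with 158 to 202 CPM in SAH and 149 to 161 CPM in control. Of 17 other ER-associated degradation genes, 1 had an unadjusted p under 0.05 and DESeq2 called 0. The lead genes were Derl1 (log2 fold change 0.13, adjusted p = 0.198) and Vimp (0.17, adjusted p = 0.314), where SAH 3 was highest at 76.6 and 44.3 CPM. Of 10 mitochondrial chaperones and proteases, DESeq2 called 1, lower, and 1 had an unadjusted p under 0.05. This was Lonp1, the matrix protease, with 67.8, 70.03, 60.02 and 63.8 CPM in SAH mice 1 to 4, 73.3, 71.0 and 72.4 in the Sham mice and 74.8, 76.1 and 70.8 in the Naive mice. Its SAH mice lay below all control mice (log2 fold change −0.16, adjusted p = 0.101 with edgeR and 0.0514 with DESeq2). Clpx, the unfoldase of the Clp protease, was at 0.11 (adjusted p = 0.442).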

How the data were processed

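Total RNA, depleted of ribosomal RNA, was made into stranded libraries and sequenced in read pairs by the authors, who aligned them to mm9 with STAR and counted with featureCounts 1.6.2 (reverse-stranded, exons summed by gene name, each pair on 1 gene only). The deposited values are counts per gene, without normalization. Antisense genes were therefore told apart by strand.

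Counts were analysed with edgeR 4.0.16 in R 4.3.3: TMM scaling, filterByExpr (minimum count 10, minimum total 15), the quasi-likelihood test on 14993 genes (15134 in the fit of 3 groups used for pairwise comparisons), Benjamini-Hochberg adjustment, threshold 0.10. A standard error is the log2 fold change divided by the square root of F. DESeq2 1.42.0 was an alternative. Scripts were tested on simulated data. The confidence intervals of log2 fold changes rest on these edgeR standard errors and include the spread between mice. Libraries ranged from 19743388 to 27254655 counts, and no 2 libraries were alike.

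The 38 genes and the lists were chosen with earlier results of these data known. All 38 are named. Of each wider list the genes past the threshold are named (at most 8), or otherwise the 2 with the smallest p; further names are marked by the tool or setting that called them. Alternatives were DESeq2's size factors, library size alone, no filter, a minimum of 10 counts per mouse, a robust fit, an adjusted p under 0.05, a 3-group fit, Sham or Naive alone as control, only the 2 groups compared, and each mouse left out. Motifs were counted in RefSeq promoters of GRCm38.p6, whereas gene positions are in mm9. Protein sequences were not used here.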

Additional observations from a re-analysis of the deposited data

Results flagged for a closer look

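In 6 of 98 gene and group combinations (49 named genes, in the 4 SAH and in the 6 control mice) a single mouse lay apart from the rest of its group by Dixon's test at the 95% level, and chance alone flags about 1 in 20. Xbp1 was at 85.2 CPM in SAH 4, with 62.6 to 66.1 CPM in the other SAH mice. Among the SAH mice SAH 3 was apart for Clpx, at 39.6 CPM against 32.1 to 32.3 CPM, and for Vimp, at 44.3 CPM against 33.4 to 35.1 CPM. Naive 9 was apart from the other control mice for Hspa1b, at 7.35 CPM against 4.75 to 5.72 CPM, and, on the low side, for Clpx, at 28.5 CPM against 31.3 to 32.9 CPM. Sham 7 was high for Hspb8, at 18.3 CPM against 14.9 to 15.9 CPM in the other controls, and yet below the lowest SAH mouse (19.5 CPM).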

How the results depend on the processing

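No paired analysis was possible because the groups share no replicate numbers. The count of members called in SAH against control was 1 with TMM, with DESeq2's size factors, with at least 10 counts in every mouse and with a robust fit. It was 2 with library size alone or no filter, 3 with DESeq2, and 0 at an adjusted p under 0.05, with the 3-group fit, with Sham or Naive mice alone as control, and without the 3 mice high in choroid plexus markers. With each mouse left out it ranged from 0 to 6: it was 4 without SAH 1, 6 without SAH 2 and 0 without each of the others. For SAH against Naive it was 0, 1 with DESeq2 and 0 to 3 with mice left out (3 without SAH 2, and 1, Dnajb1, lower, without Naive 10). For SAH against Sham and Sham against Naive it was 0 in every setting. The count of other pathway genes (5) was 10 with DESeq2, 2 at an adjusted p under 0.05, 0 with Sham alone, 2 with Naive alone and 2 to 10 with mice left out (8 without SAH 1, 10 without SAH 2, and 2 without SAH 4 or any of the Naive mice, 3 without Sham 5 or Sham 6). The cause of these changes was not tested. Hspb8 and Nupr1 were called in all 10 fits that left out a mouse.

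Some log2 fold changes that had not passed the test changed sign. Without the 3 mice high in choroid plexus markers the values that did were Hspa1b −0.11, Hsp90aa1 0.0028, Hsp90ab1 −0.065, Hspe1 0.017, Dnajb9 −0.013, Dnajb11 −0.0049, Hyou1 −0.11, Manf −0.081, Sdf2l1 −0.092, Sel1l −0.035, Xbp1 −0.0034, Atf4 0.00072, Ern1 −0.0070 and Eif2ak3 −0.0076. Other settings that did were with no filter Asns −0.0017 and Dnajb9 −0.0011, with Sham mice alone as control Asns −0.021, Chac1 −0.055 and Syvn1 0.065, with Naive mice alone as control Hsp90ab1 −0.0029. Ranges over the fits with each mouse left out, for genes whose sign changed, were Hspa8 (−0.11 to 0.019), Hspa9 (−0.014 to 0.086), Hsp90aa1 (−0.034 to 0.015), Hsp90ab1 (−0.020 to 0.023), Hsph1 (−0.13 to 0.025), Dnajb9 (−0.0094 to 0.030), Hyou1 (−0.040 to 0.077), Creld2 (−0.15 to 0.029), Sdf2l1 (−0.013 to 0.29), Syvn1 (−0.043 to 0.032), Xbp1 (−0.020 to 0.14), Chac1 (−0.053 to 0.13), Asns (−0.043 to 0.049). Of the members and the named genes of the wider set, Trib3 (3 to 12 counts) and Casp12 (9 to 36 counts) had the fewest counts per mouse. Some cell type markers had fewer. The counts of calls thus rest on single animals.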

Other observations

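The ERSE was also followed outside the 38 genes. Of the 37 genes with this element in the 300-base promoter, 19 were tested, and 1 rose in SAH (Acacb, the mitochondrial acetyl-CoA carboxylase, named after its value was seen) and 0 fell, where 3.13% of all genes rose and 1.54% fell. Their log2 fold changes ran from −0.55 to 0.66 with a median of 0.069. The 11 that are not among the 38 had a median of −0.10, with 4 positive and 7 negative, beside 0.18 for the 8 members with the element. These are descriptions of sets found by sequence, and the difference was not tested.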
